A study of Homo sapiens with 12 samples.

Results

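In Ewing sarcoma cells given NU7441, 6 enzymes that make or interconvert amino acids were followed: ASNS, GOT1, PCK2, GPT2, ALDH18A1 and PYCR1. They were found on the BeadChips as the probes whose annotated gene symbol is one of the 6 and whose detection p was under 0.05 on at least 3 of the 12 arrays. Of 47319 probes, 10 carried one of the symbols and all 10 met the detection rule, which gave 5 of the 6 enzymes among the 12171 genes measured. No probe carried the symbol GPT2 in the annotation used, so GPT2 is not analysed here. The dimmest member probe, ILMN_2395092 of PYCR1, met the rule with 4 arrays (raw intensity 73.9 to 96.3), the next, ILMN_1802699 of PCK2, with 7 arrays (71.2 to 123.2), and none failed it. The rule used detection and no fold change, but the enzymes were picked with earlier results of the same arrays known. Their changes are therefore given as measured values with the test run over all genes, and not as independent support for a shared response.

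The samples were 2 established human Ewing sarcoma lines, TC32 and SKNMC, each with 3 arrays of cells given 0.1% (v/v) DMSO, the solvent control, and 3 arrays of cells given 40 µM NU7441, a small-molecule inhibitor of the DNA repair kinase DNA-PK. No DMSO percentage is given for the NU7441 samples. All 4 groups shared the same growth medium, RPMI-1640 with fetal bovine serum, and RNA was taken at 48 h. Each line stands for 1 tumour, and the labels name no compound other than NU7441 and no other dose. Nothing in the labels makes the replicates separate cultures, and the p-values then describe how much these samples vary, possibly for technical reasons. The titles of the 6 vehicle samples end in "(2)", which those of the NU7441 samples lack; what it stands for is not explained and cannot be told apart from the treatment.

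The 12 arrays had mean raw intensities of 158 to 199 and medians of 77.5 to 81.6, and 17944 to 20148 probes were detected on each. Of 20 Ewing sarcoma markers, 18 were measured and 13 to 16 of them were detected on all arrays of a group, CD99, NKX2-2, PRKCB and CCND1 among them. Their summed normalized intensity was 15764 to 16594 under vehicle and 12983 to 14387 under NU7441 in TC32, and 16972 to 17678 and 9490 to 13818 in SKNMC. CAV1, the brightest of them under vehicle, read 12.41 in SKNMC vehicle and 10.73 in SKNMC NU7441. Of the 18, 3 were called lower in TC32 and 6 in SKNMC, where 3.91% and 5.64% of all genes were. The median log2 fold changes of the list were 0.005 in TC32 and -0.26 in SKNMC. None of 8 endothelial markers, 5 of 10 epithelial and 5 of 10 leukocyte markers met the detection rule, and the leukocyte marker PTPRC did not. In each group 4 of the 5 leukocyte markers measured were detected on all arrays. In TC32 and SKNMC, CD68 read 7.15 and 6.46 under vehicle and 8.17 and 7.92 under NU7441. LCP1 read 7.72 and 7.39 under vehicle and 6.21 and 5.58 under NU7441. In SKNMC, CD79A read 6.97 under vehicle and 5.11 under NU7441. Of 12 fibroblast markers 11 were measured, and their summed normalized intensity was 3652 to 3943 under vehicle and 2807 to 3441 under NU7441 in TC32. In SKNMC it was 2931 to 3434 under vehicle and 1681 to 2162 under NU7441. These sums hide a difference between the lines. Under vehicle, 5 of the 11 were detected on all arrays in TC32 and 11 in SKNMC, with median log2 intensities of 4.81 and 6.71. VIM was the brightest of them in TC32 vehicle, at 11.58. The part of these markers in the results was not tested. The signal of 3 NU7441 arrays stood apart in the 28S ribosomal RNA RNA28SN5, a transcript without a poly(A) tail. It read 12.69 (normalized log2 intensity) on TC32 replicate 3 and 12.33 and 12.42 on SKNMC replicates 2 and 3. It read 8.26 and 9.33 on the other TC32 NU7441 arrays, 4.33 on the remaining SKNMC one and 4.17 to 5.13 on the vehicle arrays. Of 16 transcripts without a poly(A) tail 14 were called higher in TC32 and 12 in SKNMC. The median over all detected transcripts of this kind did not split the arrays in the same way. On NU7441 replicates 1, 2 and 3 it was 5.88, 5.78 and 6.12 in TC32 and 5.08, 5.53 and 5.56 in SKNMC. On the vehicle arrays it was 4.71 to 4.93. Leaving out the 3 arrays therefore did not clear this signal from TC32. Values without the 3 arrays are given for the enzymes, and for other genes where they changed a call. In SKNMC, and for differences between the lines, such values rest on SKNMC NU7441 replicate 1 alone. Calls there take their spread from the other groups.

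Asparagine synthetase, ASNS, moves the amide nitrogen of glutamine onto aspartate, and GOT1, the cytosolic aspartate aminotransferase, interconverts aspartate and oxaloacetate and so links aspartate to the malate shuttle. PCK2, the mitochondrial phosphoenolpyruvate carboxykinase (PEPCK), turns oxaloacetate into phosphoenolpyruvate, and GPT2 is the mitochondrial alanine aminotransferase. ALDH18A1 reduces glutamate toward pyrroline-5-carboxylate, from which PYCR1 makes proline in mitochondria. When amino acids are scarce or the endoplasmic reticulum is stressed, kinases that phosphorylate eIF2 alpha raise translation of the transcription factor ATF4, which with C/EBP partners binds C/EBP-ATF response elements; ASNS is a textbook target of that response.

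Because 4 of the enzymes were lower together, the bases just upstream of the annotated starts are shown for those with an entry, with matches to such elements in capitals. The sequences are the 250 bases before the start, on the gene's strand, from RefSeq on GRCh38.p14; 4 of the 6 enzymes had an entry. The letters searched were TGATGNAA, the C/EBP-ATF type, and TGACGTNA, the cyclic AMP response element type, on both strands; they were chosen with these sequences in view. The ASNS window is chr7:97872409-97872658, that of GOT1 chr10:99430625-99430874 and that of ALDH18A1 chr10:95656712-95656961, all on the minus strand, and that of PCK2 is chr14:24094061-24094310 on the plus strand.
ASNS: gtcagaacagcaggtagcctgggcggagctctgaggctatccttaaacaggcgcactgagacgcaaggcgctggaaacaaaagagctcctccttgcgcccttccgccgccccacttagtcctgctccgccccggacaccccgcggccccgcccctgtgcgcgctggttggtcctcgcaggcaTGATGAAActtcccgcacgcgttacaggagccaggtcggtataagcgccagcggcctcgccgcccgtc
GOT1: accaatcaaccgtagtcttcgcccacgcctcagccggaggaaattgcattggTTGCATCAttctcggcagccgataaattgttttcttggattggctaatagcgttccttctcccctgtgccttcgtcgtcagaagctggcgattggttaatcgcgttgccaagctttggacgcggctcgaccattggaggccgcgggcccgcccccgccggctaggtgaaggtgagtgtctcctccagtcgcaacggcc
ALDH18A1: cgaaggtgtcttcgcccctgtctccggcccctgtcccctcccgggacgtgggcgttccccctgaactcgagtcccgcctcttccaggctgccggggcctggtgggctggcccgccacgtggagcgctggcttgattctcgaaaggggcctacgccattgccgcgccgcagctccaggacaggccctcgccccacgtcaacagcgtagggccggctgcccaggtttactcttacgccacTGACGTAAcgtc
PCK2: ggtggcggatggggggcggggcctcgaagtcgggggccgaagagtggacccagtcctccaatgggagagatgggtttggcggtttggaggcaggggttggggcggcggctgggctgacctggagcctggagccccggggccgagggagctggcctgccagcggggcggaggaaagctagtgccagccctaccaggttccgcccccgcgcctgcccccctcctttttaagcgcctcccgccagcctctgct

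ASNS held TGATGNAA on its own strand from position -68 relative to the start, and GOT1 held it on the opposite strand from position -198. ALDH18A1 held TGACGTNA from position -12. A match on the opposite strand from position -7 overlapped it, ran past the start and so is not marked above. Neither motif was found in the PCK2 window or in the window of the other annotated ASNS start. Of 35116 RefSeq promoter windows of 300 bases, 3.62% held TGATGNAA and 3.01% held TGACGTNA. A match is a description of letters, and its use in these cells was not measured. PYCR1 and GPT2 had no entry.

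ASNS, PCK2, GOT1 and PYCR1 were each lower in NU7441 than in vehicle in both lines, and ALDH18A1 did not pass the test in either. A gene was called at a limma adjusted p under 0.05, corrected over all 12171 genes, with a log2 fold change of at least 1 in size. By that rule 4 of 5 enzymes were lower in TC32, where 3.91% of all genes were called lower, and 4 of 5 in SKNMC, where 5.64% were. The 4 were the same genes in both lines, and 2.04% of all genes were called lower in both. Over all genes 476 were called lower and 312 higher in TC32 and 686 and 419 in SKNMC; without between-array normalization these were 1298 and 108, and 888 and 260. Every NU7441 array lay below every vehicle array for the 4 enzymes in both lines, as it did for 20.3% of all genes in TC32 and 25% in SKNMC. Since cells were measured in bulk, fewer cells of a type and less RNA per cell cannot be told apart.

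**Figure D1:**
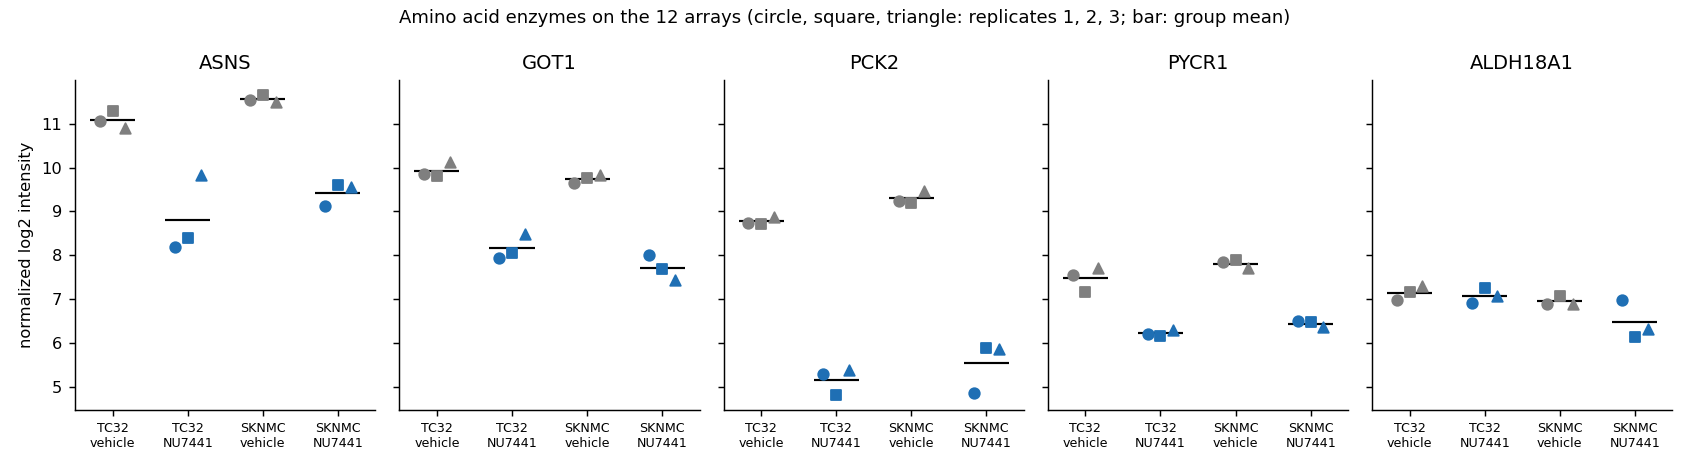
Normalized log2 intensity of the probe standing for each enzyme (vertical axis, log2 scale) on each of the 12 arrays, grouped by line and treatment (horizontal axis). Circles, squares and triangles are replicates 1, 2 and 3, and bars are group means. For ASNS, GOT1, PCK2 and PYCR1 every NU7441 array lies below every vehicle array of its line, while the ALDH18A1 groups overlap.

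The ASNS probe, ILMN_1796417, had raw intensities of 2495, 2996 and 2360 on the TC32 vehicle arrays and 288.6, 388.5 and 691.7 on the TC32 NU7441 arrays. In normalized log2 intensity these were 11.06, 11.30 and 10.91 against 8.19, 8.39 and 9.82. The groups did not overlap, and NU7441 replicate 3, one of the 3 arrays that stood apart, was over 1 log2 unit above the other NU7441 arrays. ASNS fell by 2.29 ± 0.31 on the log2 scale (SE, n = 3 per group, limma adjusted p = 0.000159), which is 4.88-fold, and the log2 fold change was -2.79 without replicate 3. In SKNMC the vehicle arrays read 11.53, 11.66 and 11.50 and the NU7441 arrays 9.14, 9.60 and 9.55. These groups were also separate, and ASNS was 4.38-fold lower (log2 fold change -2.13 ± 0.31, limma adjusted p = 0.000233), with -2.43 when only NU7441 replicate 1 was kept.

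GOT1, which can form aspartate, the substrate of ASNS, read 9.85, 9.81 and 10.13 (normalized log2 intensity) in TC32 vehicle and 7.95, 8.05 and 8.49 in TC32 NU7441. It read 9.64, 9.75 and 9.83 in SKNMC vehicle and 8.01, 7.69 and 7.44 in SKNMC NU7441. In each line the lowest vehicle array was more than 1 log2 unit above the highest NU7441 array. GOT1 was 3.41-fold lower in TC32 (log2 fold change -1.77 ± 0.18, limma adjusted p = 1.32e-05) and 4.07-fold lower in SKNMC (-2.03 ± 0.18, adjusted p = 3.81e-06). Without the 3 arrays that stood apart the log2 fold changes were -1.93 and -1.73.

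PCK2 had the most negative fold change of the 5 enzymes in both lines. Its probe ILMN_1671791 had raw intensities of 563, 579 and 665.7 in TC32 vehicle and 94.1, 90.0 and 93.9 in TC32 NU7441, which is 8.75, 8.72 and 8.88 against 5.30, 4.83 and 5.39 after normalization. In SKNMC the raw intensities were 708.9, 641 and 809.1 against 91.1, 114 and 115.1, and the normalized ones 9.23, 9.20 and 9.47 against 4.88, 5.89 and 5.87. The NU7441 arrays of both lines thus lay close to the array medians, though the probe was still detected on all 12 arrays. PCK2 was 12.2-fold lower in TC32 (log2 fold change -3.61 ± 0.23, limma adjusted p = 2.09e-07) and 13.5-fold lower in SKNMC (-3.75 ± 0.23, adjusted p = 2.54e-07). Counted from the most negative fold change, PCK2 was at rank 3 of all genes in TC32 and rank 11 in SKNMC.

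The size of the PCK2 change depended on how a signal that near to background was treated and on which probes were taken. The further PCK2 probes are annotated to another transcript than the probe standing for the gene. Without background correction its log2 fold changes were -2.36 in TC32 and -2.65 in SKNMC, and with the mean over its 3 probes -1.98 and -2.47, all of them still called. With means over probes ASNS (-2.21) was below PCK2 in TC32. Without the 3 arrays that stood apart they were -3.72 and -4.42.

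Of the proline enzymes, PYCR1 (ILMN_1796013) was lower by a smaller step. It read 7.56, 7.17 and 7.71 in TC32 vehicle and 6.22, 6.16 and 6.30 in TC32 NU7441. In SKNMC it read 7.84, 7.89 and 7.72 against 6.51, 6.48 and 6.37, and the NU7441 arrays of each line were close to one another and apart from vehicle. PYCR1 was 2.38-fold lower in TC32 (log2 fold change -1.25 ± 0.15, limma adjusted p = 4.61e-05) and 2.57-fold lower in SKNMC (-1.36 ± 0.15, adjusted p = 2.09e-05). Without the 3 arrays that stood apart it was -1.29 and -1.30. It was under the fold minimum without background correction (-0.82 and -0.94), in the submitters' log2 table (-0.82 and -0.94) and with the mean over its 3 probes (-0.58 and -0.54).

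ALDH18A1, the step before PYCR1, read 6.98, 7.16 and 7.30 in TC32 vehicle and 6.91, 7.27 and 7.08 in TC32 NU7441. The 2 groups overlapped, with a log2 fold change of -0.06 ± 0.19 (95% interval -0.48 to 0.35, limma adjusted p = 0.861). In SKNMC it read 6.90, 7.08 and 6.90 against 6.99, 6.15 and 6.34, so NU7441 replicate 1 lay among the vehicle arrays and replicates 2 and 3, which stood apart, below them. The log2 fold change there was -0.47 ± 0.19 (95% interval -0.88 to -0.05, adjusted p = 0.0792), and it was 0.03 (adjusted p = 0.939) without the 3 arrays that stood apart. A change of 1 log2 unit lies outside both intervals.

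Further probes of 3 of the enzymes were measured and did not all move like the probe standing for the gene. The other ASNS probe, ILMN_2398107, had log2 fold changes of -2.12 ± 0.42 in TC32 and -2.20 ± 0.42 in SKNMC (limma adjusted p over probes = 0.00261 and 0.00173), and correlated with the first at r = 0.979 over the 12 arrays. Its TC32 NU7441 arrays read 6.62, 6.64 and 8.64, so replicate 3 was again the highest. The PCK2 probe ILMN_1760649 had -1.31 ± 0.17 and -2.09 ± 0.17 (adjusted p = 0.000144 and 2.07e-06), with 1 of 3 NU7441 arrays detected in each line. The PCK2 probe ILMN_1802699 had a log2 fold change of -1.03 ± 0.14 in TC32 (adjusted p = 0.000147), and in SKNMC it was detected on none of the 3 NU7441 arrays and was at least 2.58-fold lower. Such bounds set the vehicle mean against the lowest detected signal on each array, or the probe's own signal where that was higher.

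The PYCR1 probes differed most. ILMN_1715178 had log2 fold changes of -0.26 ± 0.21 in TC32 and 0.19 ± 0.21 in SKNMC (limma adjusted p over probes = 0.444 and 0.56), and its correlation with the brightest PYCR1 probe over the 12 arrays was 0.0911. ILMN_2395092 was detected on 2 of 3 vehicle arrays and on no NU7441 array of either line. Its log2 fold changes were -0.21 ± 0.19 in TC32 and -0.43 ± 0.19 in SKNMC (limma adjusted p over probes = 0.499 and 0.113). Vehicle and NU7441 arrays of this probe overlapped in each line, so it did not show a fall. Both were dim, at 73.9 to 97.9 raw intensity units against 118.6 to 320.1 for the brightest probe, and which transcripts each one reads was not tested.

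**Figure D2:**
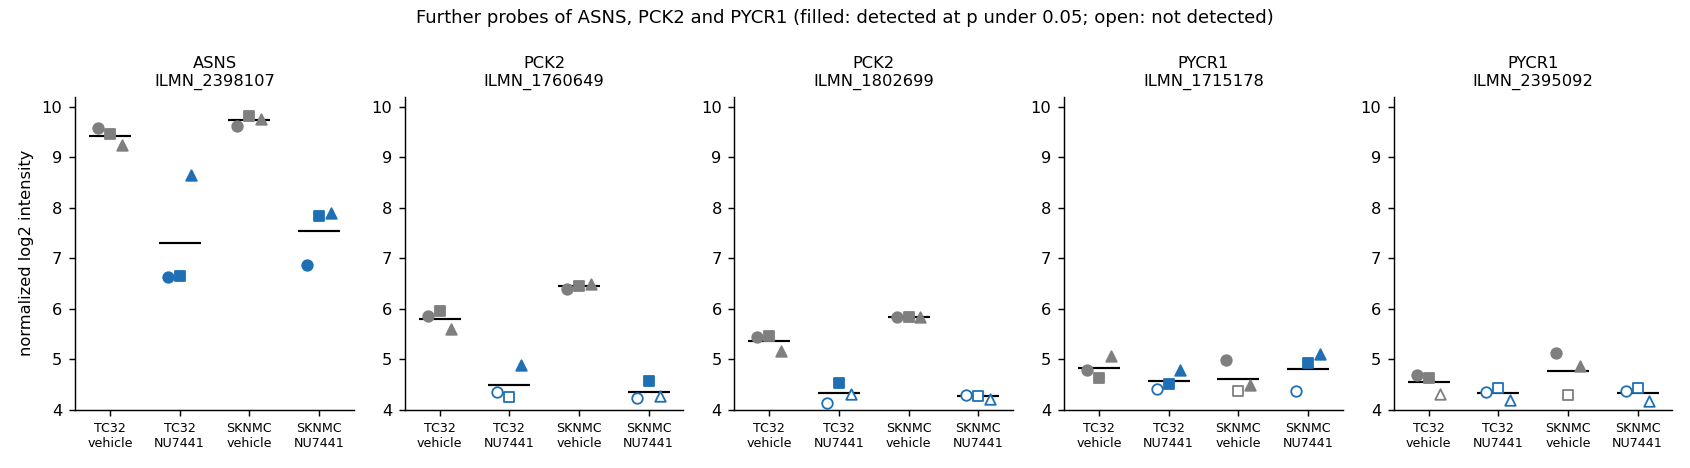
Normalized log2 intensity (vertical axis, log2 scale) of the 5 further probes of ASNS, PCK2 and PYCR1 by line and treatment, with circles, squares and triangles for replicates 1, 2 and 3 and bars for group means. Filled points are arrays on which the probe was detected at p under 0.05. The ASNS and PCK2 probes are lower in NU7441, and the PYCR1 probes ILMN_1715178 and ILMN_2395092 show overlapping groups.

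The responses of the 2 lines were compared gene by gene as TC32 minus SKNMC, a contrast in which 1.85% of all genes were called, and 0 of the 5 enzymes. The difference was -0.15 ± 0.44 for ASNS (95% interval -1.10 to 0.79 on the log2 scale, limma adjusted p = 0.896) and 0.14 ± 0.33 for PCK2 (-0.57 to 0.86, adjusted p = 0.866). For GOT1 it was 0.26 ± 0.25 (-0.28 to 0.79, adjusted p = 0.648). PYCR1 had the narrowest interval, -0.33 to 0.56 around 0.11, and ALDH18A1 ran from -0.18 to 0.99 around 0.40. A difference between the lines was not detectable with 3 arrays per group, and the intervals do not show that the lines responded alike.

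**Figure D3:**
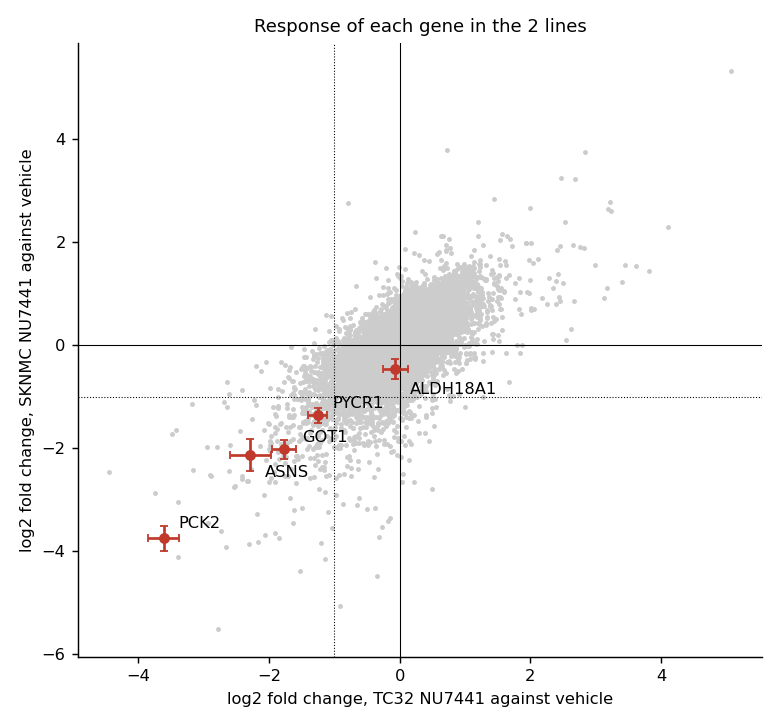
Log2 fold change of NU7441 against vehicle in TC32 (horizontal axis) and SKNMC (vertical axis). Grey points are the genes measured, red points the 5 enzymes with SE bars, and dotted lines the fold minimum of 1 log2 unit downwards. ASNS, GOT1, PCK2 and PYCR1 lie below both dotted lines and ALDH18A1 near the origin.

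Under vehicle, ASNS, PCK2 and PYCR1 read lower in TC32 than in SKNMC on every array, with a gap of 0.009 log2 units for PYCR1. The share of all genes with separate arrays was not counted between the lines, under vehicle or under NU7441. None of the 5 was called, against 4.26% of all genes called in either direction. ASNS differed by -0.47 ± 0.31 on the log2 scale (TC32 minus SKNMC, limma adjusted p = 0.362), PCK2 by -0.51 ± 0.23 (adjusted p = 0.17) and PYCR1 by -0.34 ± 0.15 (adjusted p = 0.148). GOT1 (0.19 ± 0.18) and ALDH18A1 (0.19 ± 0.19) overlapped between the lines. For ASNS, PCK2 and PYCR1 the order of group means from high to low was SKNMC vehicle, TC32 vehicle, SKNMC NU7441 and TC32 NU7441. The NU7441 arrays of the 2 lines overlapped for ASNS and PCK2 and did not for PYCR1, at 6.45 ± 0.07 in SKNMC and 6.23 ± 0.07 in TC32 (SD, n = 3). For GOT1 TC32 was above SKNMC under both treatments, with overlapping arrays in each. For ALDH18A1 the group means were 7.15 and 7.08 in TC32 vehicle and NU7441 and 6.96 and 6.50 in SKNMC.

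Of the closest relatives of the enzymes, 3 were measured and none was called in either line. GOT2, the mitochondrial partner of GOT1, had log2 fold changes of -0.39 ± 0.25 in TC32 (limma adjusted p = 0.295) and -0.99 ± 0.25 in SKNMC (adjusted p = 0.00869), the latter just under the fold minimum. It passed that minimum in SKNMC without NU7441 replicate 1 (-1.34), without vehicle replicate 3 (-1.04) and with scaling by the median (-1.20), and was -0.31 (adjusted p = 0.265) without the 3 arrays that stood apart. ASNSD1, which resembles ASNS in sequence, had 0.15 ± 0.15 and -0.06 ± 0.15, and PYCR3 had 0.12 ± 0.16 and 0.48 ± 0.16. PCK1, the cytosolic PEPCK, was detected on 1 of 12 arrays, GPT, the cytosolic counterpart of GPT2, on 2 and GOT1L1 on 1, so none was tested.

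Most other enzymes around the same metabolites did not pass the test. Of 20 enzymes of asparagine, aspartate and glutamate, 10 besides ASNS and GOT1 were measured: 1 was called lower in TC32 and 0 in SKNMC. Their median log2 fold changes were 0.006 and -0.27, with 0.0009 and -0.0007 over all genes. The 1 was ASS1, argininosuccinate synthase, which uses aspartate in arginine synthesis, at -1.63 ± 0.50 in TC32 (limma adjusted p = 0.0266) and -0.92 ± 0.50 in SKNMC (adjusted p = 0.174). Its TC32 call was lost when any one of TC32 vehicle replicates 1 or 2 or NU7441 replicates 2 or 3 was left out. Without the 3 arrays that stood apart ASS1 was -1.31 in TC32 and -2.52 in SKNMC, the latter from NU7441 replicate 1 alone.

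Of 15 proline and ornithine enzymes, 8 besides PYCR1 and ALDH18A1 were measured, with medians of -0.04 in TC32 and -0.13 in SKNMC. P4HA2, a subunit of the collagen prolyl hydroxylase, was lower in TC32 (-1.96 ± 0.48, limma adjusted p = 0.00882) and in SKNMC (-1.77 ± 0.48, adjusted p = 0.0125), where 1 of 3 NU7441 arrays detected it. The SKNMC value was -1.499 and no longer called without the 3 arrays that stood apart (adjusted p = 0.0559), and -0.73 without background correction. PEPD, a peptidase that frees proline from dipeptides, was higher in SKNMC, where 3.44% of all genes were called higher against 2.56% in TC32 (1.08 ± 0.14, adjusted p = 0.000114) and was 0.70 ± 0.14 in TC32, under the fold minimum; with scaling by the median or without background correction the SKNMC value was 0.85 and no longer called.

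Of 14 other aminotransferases, 8 were measured and 2 were called lower in each line, with medians of -0.28 and -0.76. BCAT1, the cytosolic branched-chain aminotransferase, had log2 fold changes of -2.53 ± 0.25 in TC32 (limma adjusted p = 1.26e-05) and -2.76 ± 0.25 in SKNMC (adjusted p = 5.54e-06). PSAT1, which makes phosphoserine on the route to serine, had -1.66 ± 0.25 and -2.41 ± 0.25. Both stayed called without the 3 arrays that stood apart, at -2.51 and -2.03 for BCAT1 and -1.87 and -1.96 for PSAT1. No other member of that list was called in either line.

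Around PCK2, 15 further enzymes of phosphoenolpyruvate, pyruvate and malate were measured of 22 listed, with medians of -0.15 in TC32 and -0.40 in SKNMC. PDK3, a kinase that switches off pyruvate dehydrogenase, was higher in both lines (1.06 ± 0.17 and 1.23 ± 0.17), but leaving out TC32 vehicle replicate 3 (0.91) or TC32 NU7441 replicate 2 (0.94) ended its TC32 call, its SKNMC call was lost without the 3 arrays that stood apart (0.99), and both with the mean over its probes (0.37 and 0.72) or without background correction (0.55 and 0.86). ME1, the cytosolic malic enzyme, was lower in SKNMC (-1.97 ± 0.22, limma adjusted p = 3.41e-05), and in TC32 its change was just under the fold minimum in size. Its SKNMC value was -0.95 and no longer called without background correction or in the submitters' table, and -1.34 without the 3 arrays that stood apart. Of 16 citrate cycle enzymes measured, SUCLG2, a succinyl-CoA ligase subunit, was called lower in both lines (-1.72 ± 0.19 and -1.22 ± 0.19), and the list medians were -0.006 and -0.13. The SKNMC call of SUCLG2 was lost without the 3 arrays that stood apart (-0.81), and both calls without background correction (-0.89 and -0.51) or in the submitters' table (-0.89 and -0.51). Of 13 mitochondrial carriers measured, SLC25A22, a glutamate carrier, was called higher in TC32 (1.02 ± 0.29) and SLC25A21, an oxodicarboxylate carrier, lower in SKNMC (-1.28 ± 0.20). The SLC25A22 call was lost without any one of TC32 vehicle replicates 1 and 3 and NU7441 replicates 2 and 3 (0.87 to 0.97), and the SLC25A21 call without the 3 arrays that stood apart (-0.75). Neither was called without background correction (0.65 and -0.51).

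The list of eIF2 alpha kinases, ATF4 and its partner factors held more calls. Of 19 measured, 7 were called lower in TC32 and 7 in SKNMC, where 3.91% and 5.64% of all genes were. None was called higher, and the medians were -0.58 and -0.56. The list also held TRIB3, CHAC1 and NUPR1, and no eIF2 alpha kinase is among the calls named below. The list was drawn up with the fall of the members known. TRIB3, a pseudokinase that ATF4 induces, had log2 fold changes of -3.59 in TC32 and -3.72 in SKNMC, and ATF3 -1.88 and -1.63. Without background correction the ATF3 values were -1.09 and -1.25, and without the 3 arrays that stood apart -2.02 and -2.43, still called; those of TRIB3 without these arrays were -3.68 and -4.61. CEBPG, a C/EBP partner of ATF4, had -1.48 and -1.49. CEBPG, JDP2, ATF4, DDIT3 and CEBPB were picked for naming after their values were seen. CHAC1, which degrades glutathione, was detected on no NU7441 array and was at least 2.04-fold lower in TC32 and at least 3.16-fold lower in SKNMC. NUPR1 had a log2 fold change of -1.84 in TC32 and was at least 3.99-fold lower in SKNMC, where no NU7441 array detected it. Without background correction neither NUPR1 (-0.87 and -0.95) nor CHAC1 (-0.48 and -0.79) was called in either line, and the submitters' table gave similar values. ATF5 (-2.60) was called in TC32 and not in SKNMC (-0.94), and JDP2 (-1.39) in SKNMC and not in TC32 (-0.58); neither difference between the lines was called in that fit. Without the 3 arrays that stood apart ATF5 was -3.17 in TC32 and -2.14 in SKNMC, with a difference of -1.03. The SKNMC value and the difference rest on SKNMC NU7441 replicate 1 alone. JDP2 was not called in SKNMC without background correction (-0.56). DDIT3 and CEBPB, of the same list, were not called in either line as reported. On SKNMC NU7441 replicates 2 and 3 DDIT3 read 9.78 and 9.81, above the vehicle arrays (9.09 to 9.39), and on replicate 1 it read 7.53. Without the 3 arrays that stood apart DDIT3 was -1.14 in TC32 and -1.72 in SKNMC, and CEBPB was -0.63 and -1.13.

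ATF4 mRNA itself had log2 fold changes of -1.18 ± 0.27 in TC32 (limma adjusted p = 0.00598) and -1.06 ± 0.27 in SKNMC (adjusted p = 0.00877). These calls were lost with the mean over its probes (-0.51 and -0.46, adjusted p = 0.0821 and 0.0988). The SKNMC call was also lost without NU7441 replicate 1 (-0.66), with array weights (-0.74) and with scaling by the median (-0.96). Without the 3 arrays that stood apart the values were -1.41 and -1.85.

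**Figure D4:**
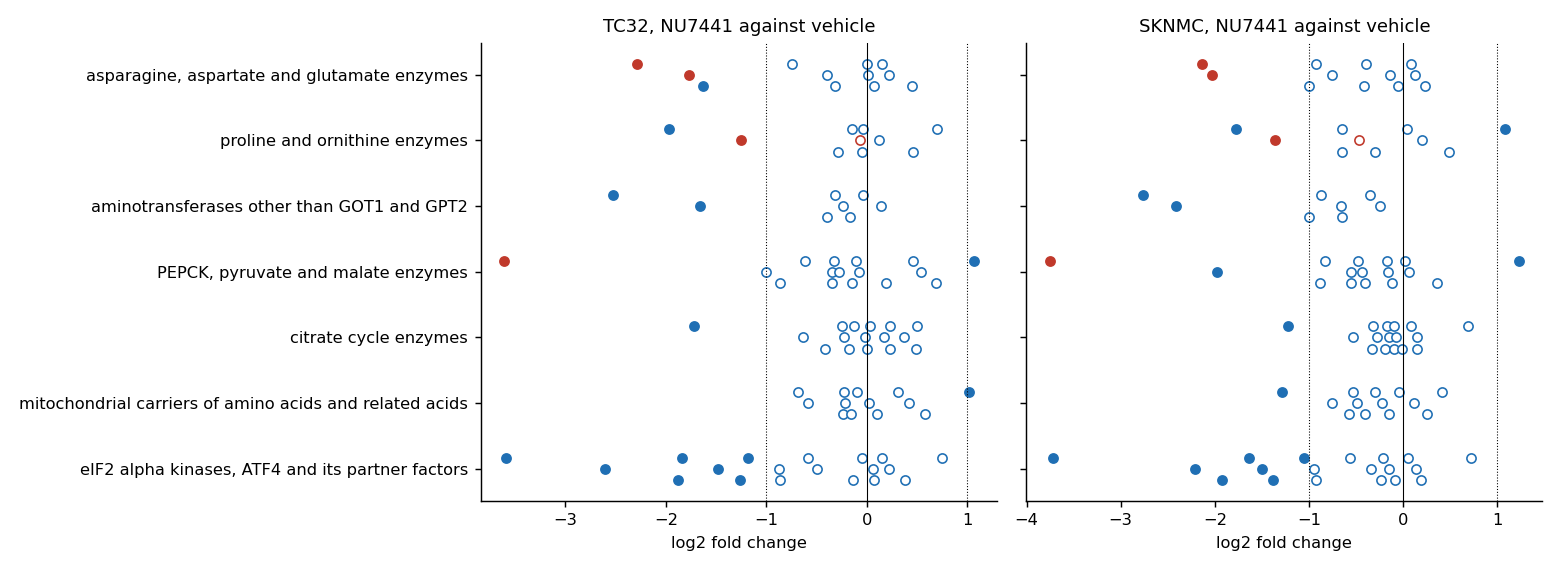
Log2 fold change of NU7441 against vehicle (horizontal axes) in TC32 and SKNMC for the measured genes of 7 pathway lists. Red points are the 5 enzymes, blue points other genes, filled points called genes, and dotted lines mark 1 log2 unit; CHAC1, and NUPR1 in SKNMC, are drawn at fitted values although the text gives only bounds. The 6 other lists hold 0 to 2 filled blue points per line, and the eIF2 alpha and ATF4 list holds 7.

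The profile of each enzyme over the 12 arrays was set against every other gene with Pearson's r, a description in which the points share arrays and the contrast of treatments. With the mean of the 5 enzymes, GARS1 (r = 0.993), BEST1 (0.989), AARS1 (0.989), CBS (0.988) and RBPMS2 (0.987) were the most alike. BEST1, with log2 fold changes of -1.78 and -2.16, was not called in either line without background correction (-0.73 and -0.94). GARS1 and AARS1 charge tRNAs with glycine and alanine and CBS makes cystathionine. Taken singly, ASNS was closest to MARS1, the methionine tRNA ligase (0.977), PCK2 to GARS1 (0.991), GOT1 to BCAT1 (0.979), PYCR1 to NSMAF (0.984; log2 fold changes of -1.45 and -1.25, and -0.95 and -0.85 without background correction) and ALDH18A1 to EMD (0.969). GARS1 had log2 fold changes of -1.72 ± 0.13 and -1.69 ± 0.13, and EMD, like ALDH18A1, was not called, at 0.03 ± 0.20 and -0.52 ± 0.20. Among ASNS, PCK2, GOT1 and PYCR1 pairwise r ran from 0.871 to 0.967, and between ALDH18A1 and the others from 0.184 to 0.57. Once group means were removed, r between pairs of enzymes ran from -0.843 to 0.559.

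**Figure D5:**
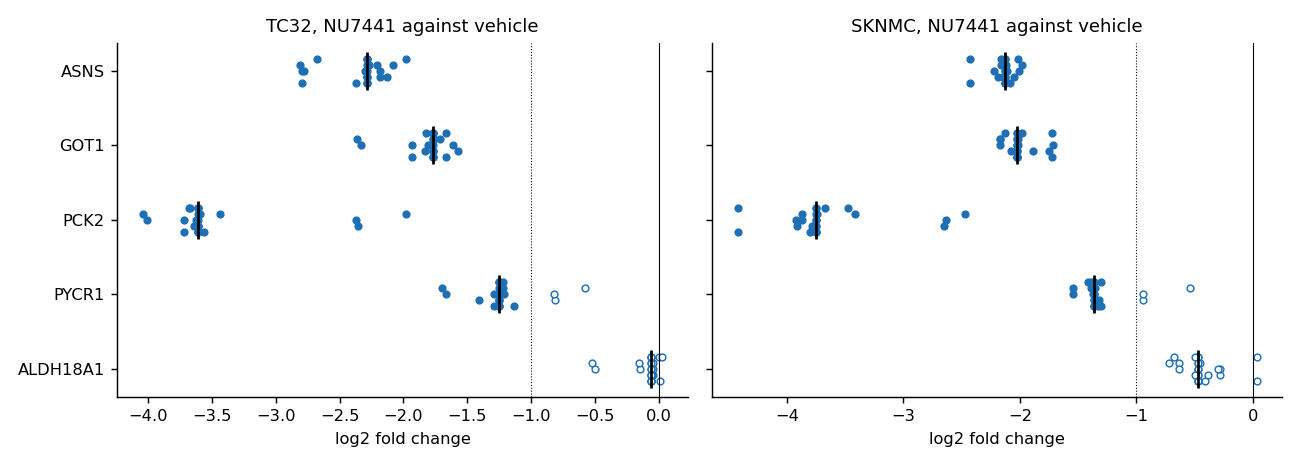
Log2 fold change of each enzyme (horizontal axes) in TC32 and SKNMC under each setting tried, with the reported value as a black bar. Filled points were called, open points were not, and the dotted line marks 1 log2 unit downwards. ASNS, GOT1 and PCK2 stay filled throughout, PYCR1 has 3 open points per line, and ALDH18A1 has open points alone.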

How the data were processed

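Total RNA was measured on Illumina BeadChips, 3 arrays in each of 4 groups taken from the sample titles. Non-normalized bead intensity per probe and array, each with a detection p-value, was deposited, per the file headers. A further deposited table holds log2 values made by the submitters, used as an alternative; GenomeStudio, lumi and R 3.0.2 stand in the submitters' processing notes, with no role given. With limma 3.58.1 in R 4.3.3, intensities went through neqc (normexp background from detection p-values, offset 16, quantile normalization, log2), which would hide a shift of most transcripts. Probes detected at p under 0.05 on at least 3 of 12 arrays were kept, 21753 in all, and the brightest stood for each of 12171 genes. One model over all arrays gave the contrasts, with a spread shared by the 4 groups and Benjamini-Hochberg adjustment over all genes, or over all probes for further probes. Folds are ratios of geometric means. The fit was tested on simulated data. Symbols came from the platform annotation, updated through RefSeq. The number of arrays limits the precision.

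Members and gene lists were chosen with earlier results of these data known. Genes named besides the members were, by rule, at most 4 called genes of a list per line and direction, the closest relatives, and the genes with the highest r. CEBPG, JDP2, ATF4, DDIT3 and CEBPB were added after their values were seen. There were 0 unused sample columns and 0 pairs of identical arrays. Replicate numbers did not pair the samples. Alternatives covered background, scaling, detection filter, probe choice, arrays left out, array weights, a replicate block and the submitters' table.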

Additional observations from a re-analysis of the deposited data

How the results depend on the processing

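Of 495 values of the 5 enzymes under other settings, 489 kept their direction where called and their side of the threshold, and 6 were no longer called. The 495 include the contrasts between the lines and ALDH18A1, which held no call to lose. Leaving out an array of either line could not change the fold changes within the other. All 6 were PYCR1: -0.82 in TC32 and -0.94 in SKNMC without background correction, -0.58 and -0.54 with the mean over detected probes, and -0.82 and -0.94 in the submitters' log2 table. The adjusted p stayed under 0.05 in each, and the fold minimum was missed. Leaving out each of the 12 arrays in turn gave TC32 log2 fold changes of -2.79 to -1.98 for ASNS, -3.72 to -3.44 for PCK2, -1.93 to -1.66 for GOT1 and -1.41 to -1.14 for PYCR1. In SKNMC they were -2.22 to -1.99, -3.92 to -3.42, -2.18 to -1.89 and -1.41 to -1.32, and ALDH18A1 ran from -0.72 to -0.30. Without between-array normalization the median of all genes moved to -0.25 in TC32 and -0.10 in SKNMC, and relative to that median PCK2 was at -3.79 and -3.77 and PYCR1 at -1.44 in each line. Fold changes over all genes in the submitters' table had slopes of 0.631 in TC32 and 0.614 in SKNMC on the re-normalized ones. Of 62 response values of other named genes, 18 were no longer called without background correction and 18 in the submitters' table.

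Over all genes, lower and higher calls in TC32 were 156 and 89 without background correction, 158 and 93 in the submitters' table and 1193 and 113 with median scaling. In SKNMC they were 221 and 139, 217 and 132, and 885 and 262, then 907 and 635 without NU7441 replicate 1 and 382 and 248 without the 3 arrays that stood apart. With only SKNMC NU7441 replicates 2 and 3 left out, a setting chosen after seeing the data, they were 363 and 194. Across these settings 4 or 3 of 5 enzymes were called in each line. The TC32 minus SKNMC difference of ASS1 was not called as reported (-0.71). It was called at -1.31 with array weights (limma adjusted p = 0.0101) and at -1.505 without SKNMC NU7441 replicate 1 (0.0171), and turned to 1.21 without the 3 arrays. The difference of ATF5 (-1.66 as reported, limma adjusted p = 0.201) was called in 5 settings, from -2.56 with array weights to -1.03 without the 3 arrays. Both values without the 3 arrays rest on SKNMC NU7441 replicate 1 alone. The causes were not tested. The replicate block changed no call of an enzyme (ASNS adjusted p = 0.000263 in TC32 and 0.000342 in SKNMC, with 477 and 688 genes called lower). Same-numbered arrays did not deviate together, with r of -0.0618 to 0.0622 over 6 pairs. Slide as a block was not run, since the files used here name no slide.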
